A study of Hordeum vulgare with 2 samples.

Results

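Cleavage sites of microRNAs were examined in the degradome library of shoots of XZ153, on the barley transcripts whose IDs sort after HORVU2Hr1G036110.5, the last transcript with values in the companion list of the cultivar ZD9. Members were all XZ153 records with a site on such a transcript, which are those on the rest of the HORVU2 IDs and on HORVU3 to HORVU7. They numbered 32074 of the 40424 records of the list, or 79.3%, on 16765 transcripts of 7342 genes. The records carried 848 small RNA names, of which 32, starting with PC, have no family number. Names were grouped into families by the number after miR, and isoforms were merged into genes, which leaves 17842 pairs of family and gene (a PC name stands for itself). XZ153 and ZD9 are the cultivar labels of the series, which set a wild barley from Tibet beside a cultivated one under potassium shortage, and each has 1 library of shoot tissue. Per the labels' protocols, hydroponic seedlings received 0.01 mM or 1 mM potassium, but the labels do not say which level, or which pool, the XZ153 library came from. With 1 library there is no replicate, no level of the spread between plants and no test between conditions. The list has no read column for XZ153, so the depth of the library is unknown and shoot markers could not be checked.

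Plant microRNAs guide an Argonaute protein to messenger RNAs that pair with them along most of their length, and the protein cuts the message opposite the middle of the small RNA. The downstream fragment keeps a 5′ phosphate, which degradome sequencing ligates and reads, so a guided cut appears as reads that start at 1 nucleotide. Ordinary decay also leaves such ends. Many conserved plant families act on transcription factors of growth and flowering, on auxin signalling, or on nutrient and metal handling.

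Each record gives the small RNA, the transcript, the position of the cut, and values from CleaveLand, which pairs small RNAs with transcripts and counts degradome reads that start where the cut would fall. The category ranks that position on its transcript, from 0, the single highest, to 4, 1 read. The Allen score is a mismatch penalty, so lower means better paired, and the MFE ratio is the free energy of the site over that of a perfect one. The deposited p-value combines the rank of the pairing with how common the category is in the library, without adjustment for multiple records. A record was called supported if its p-value was at most 0.05 and its category 0, 1 or 2.

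The sites that carry the strongest support are shown first, as the XZ153 list gives them, 5′ to 3′. Capitals in a target site mark the bases on either side of the cut, which lie opposite bases 11 and 10 of the small RNA, and capitals in a small RNA mark its seed, bases 2 to 8. The miR160 and miR396 sets are shown because they had the most genes with well-paired sites in category 0, and their target sites are nearly the same sequence from gene to gene.
miR160 (osa-miR160f-5p): uGCCUGGCucccugaaugcca
HORVU2Hr1G125740: uggcaugcagGGagccaggca
HORVU6Hr1G026750: aggcauacagGGagccaggca
HORVU7Hr1G101270: ggcauacagGGagccaggca
HORVU6Hr1G058890: ggcauacagGGagccaggca
HORVU2Hr1G089660: agggauacagGGagccaggca
HORVU2Hr1G089670: agggauacagGGagccaggca
miR396 (osa-miR396e-5p): uCCACAGGcuuucuugaacug
HORVU2Hr1G101770: ccguucaagaAAgccugugga
HORVU7Hr1G008680: ccguucaagaAAgccugugga
HORVU2Hr1G094460: gccguucaagaAAgccugugga
HORVU2Hr1G094470: gccguucaagaAAgccugugga
HORVU6Hr1G081210: gaaccguucaagaAAgccugugga
HORVU4Hr1G003440: ucguucaagaAAgccugugga
HORVU4Hr1G010080: cguucaagaAAgcauguggaa

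The second set holds the sites of other conserved families whose supported record with the lowest p-value had an Allen score of at most 3, with 1 small RNA for each family.
miR171 (bdi-MIR171a-p5): uGAUUGAGccgcgccaauauc
HORVU6Hr1G063650: gauauuggcgCGgcucaauca
HORVU7Hr1G001300: gauauuggcgCGgcucaauca
miR169 (osa-miR169n): uAGCCAAGaaugacuugccua
HORVU5Hr1G007890: ugggcaauucAUucuuggcuc
HORVU4Hr1G005670: caggcaauucAUucuuggcuu
HORVU6Hr1G081080: ggcaacucAUccuuggcuu
miR172 (ata-miR172c-3p): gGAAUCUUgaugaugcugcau
HORVU7Hr1G116220: cagcagcaucAUcaggauucc
HORVU2Hr1G113880: gcagcaucAUcacgauucc
miR156 (osa-miR156a): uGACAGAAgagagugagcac
HORVU2Hr1G048280: augcucccuCUcuucuguca
HORVU5Hr1G076380: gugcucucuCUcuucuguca
HORVU6Hr1G019700: augcucucuCUcuucuguca
miR164 (osa-miR164a): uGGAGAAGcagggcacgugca
HORVU5Hr1G011650: ugagcaagugccCUgcuucucca
HORVU5Hr1G041400: ugcucuugccCUgcuucuccu
miR166 (a variant of osa-miR166a-3p): uCGGACCAggcuucauuccca
HORVU5Hr1G010650: ugggaaugaaGCcugguccgg
miR395 (ata-miR395a-3p): uGAAGUGUuugggggaacuc
HORVU5Hr1G094300: gaguuccucCAagcacuuca
miR1432 (a variant of osa-miR1432-5p): uUCAGGAGagaugacaccgac
HORVU5Hr1G111520: gucggugucgUCucuccugau

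The third set shows sites outside the conserved list, which were supported, well paired and in category 0 (miR1122, miR1439, miR1862, miR7757), share a site between genes (the second miR1122 gene, miR5368) or belong to a family known in barley (miR9863, with an Allen score of 3.5).
miR1122 on HORVU2Hr1G055640: uccuaaaauaaguGUcucaacuuu
miR1122 on HORVU7Hr1G008680: cguccuaaaauaaGUgucucaagcu
miR1439 on HORVU2Hr1G044640: acucccuccguucCUaaauauaag
miR1862 on HORVU3Hr1G087940: guacuuccucUGucccaaaau
miR7757 on HORVU3Hr1G105020: aguuacuucaguGAgcuaauaaa
miR9863 on HORVU6Hr1G002550: gcugaugauCUgccuucucu
miR5368 on HORVU7Hr1G081960, HORVU7Hr1G107880 and HORVU6Hr1G049560: gggauccgggcgGUccggggggg

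Support was rare. Of the 17842 pairs of family and gene, 103 were supported, with an exact Poisson 95% interval of 84.1 to 124.9, which is 0.577% of them. The background was 0.615% over all pairs of the XZ153 list. The 103 pairs lay on 102 genes and covered 197 records on 190 transcripts, which is 0.614% of the records, where the whole list had 0.675%. By family, 98 pairs belonged to 43 families and 5 to PC names. The p-values were unadjusted, and after Benjamini-Hochberg adjustment over all 40424 records none passed 0.05, the lowest adjusted value being 0.438, while 415 records had an unadjusted p-value of at most 0.05. A single supported pair is therefore weak on its own, and 11 of the 103 pairs had a best p-value above 0.04. Just outside the limit, 20 further pairs in category 0 to 2 had p-values between 0.05 and 0.06. Intervals cover counting error only.

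Category 0 was met more often at well-paired sites of conserved families, many of them sites of miR160 and miR396. Well paired here means an Allen score no higher than 2.5. A category 0 record was found for 21 of 66 such pairs of the 31 families listed as conserved, or 31.8% (exact Clopper-Pearson 95% interval 20.9 to 44.4). For equally well-paired sites of other families and PC names it was 7 of 101, or 6.93% (2.83 to 13.8). Of the conserved pairs, miR160 had 6 of its 6 well-paired genes in category 0 and miR396 had 6 of its 9. Within each of these families the sites are nearly the same from gene to gene, so the pairs are not independent. The intervals treat them as if they were. The background was 2.13% over all pairs of the XZ153 list and 2.14% over the pairs after the ID limit. Above a score of 4 the shares were 1.95% (1.61 to 2.35) of 5735 conserved pairs and 1.91% (1.67 to 2.18) of 11565 other pairs. Within the conserved families the share was 37.5% (18.8 to 59.4) at scores of at most 1 and 31.4% (19.1 to 45.9) above 1 and up to 2.5. It fell to 8.04% (4.67 to 12.7) above 2.5 and up to 4. A pair with records at several scores is counted in each of these ranges, so the ranges are not separate sets of pairs. The category is set by reads alone, and the Allen score does not enter it. The family list was drawn up with earlier results of these data known.

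**Figure D1:**
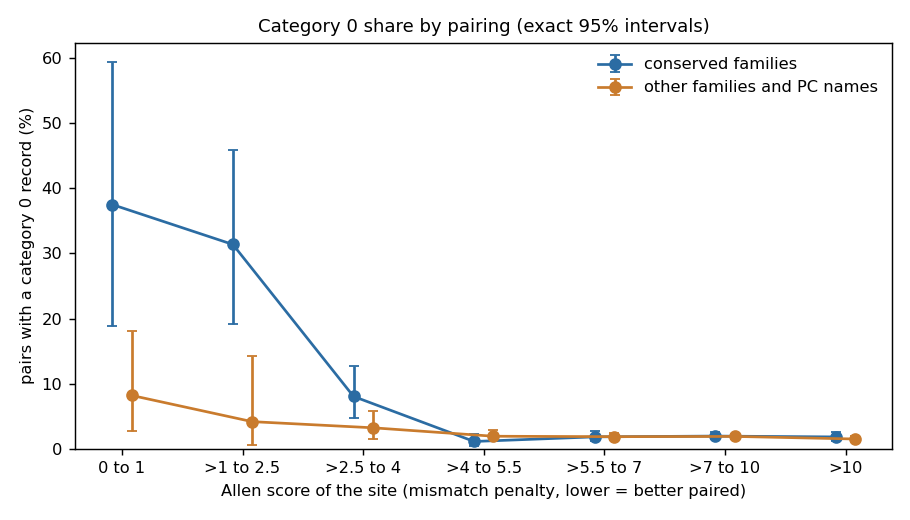
Percent of family and gene pairs with a category 0 record, by Allen score of the record, for conserved families and for other families with PC names; bars are exact 95% intervals. The conserved families reach 37.5% at scores of at most 1, and above a score of 5.5 both groups lie below the 2.13% of all pairs. A pair with records at several scores is counted in each range.

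The share also differed by the name under which a site was listed. Among well-paired conserved pairs, 20 of 36 under mature microRNA names had a category 0 record, or 55.6% (38.1 to 72.1). Under hairpin-arm names, which refer to an arm of a microRNA precursor, it was 1 of 30, or 3.33% (0.0844 to 17.2). Of these 30 pairs, 17 carried gma-MIR169g-p3 or a variant of it, so the share rests largely on 1 small RNA. The 1 in category 0 was bdi-MIR171a-p5 on HORVU7Hr1G001300, with an Allen score of 0. The mature name bdi-miR171a_R+1 also scored 0 on HORVU6Hr1G063650, whose printed site has the same letters. A hairpin-arm name can thus pair like a mature one, and the split is one of names only. Of the other families, 0 of 11 well-paired pairs under mature names were in category 0, which allows a share of up to 27.3% (3 counts of the total, with an exact upper limit of 28.5%). Up to the ID limit the pattern was 4 of 8 for conserved pairs under mature names and 0 of 13 under hairpin-arm names.

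The supported pairs were spread over many families. Of the 43 families, 23 had 1 supported gene, 12 had 2 and 8 had 3 or more, and these 8 held 51 of the pairs. The most supported genes belonged to miR5368 with 13, miR169 with 10, miR396 with 8 and miR160 with 7. These counts stand beside unequal numbers of listed genes. The most genes were listed for miR5368, 1343, and miR169, 1245, of which 0.968% and 0.803% were supported. The shares of miR160 and miR396, with 99 and 417 genes listed, were 7.07% and 1.92%. The families next in listed genes were miR4995 with 789, miR10422 with 611 and miR8175 with 547, and of these only miR8175 had supported genes, 2. The median family had 34 genes listed. Of the 31 conserved families 27 were listed and 18 had a supported pair, on 55 pairs.

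**Figure D2:**
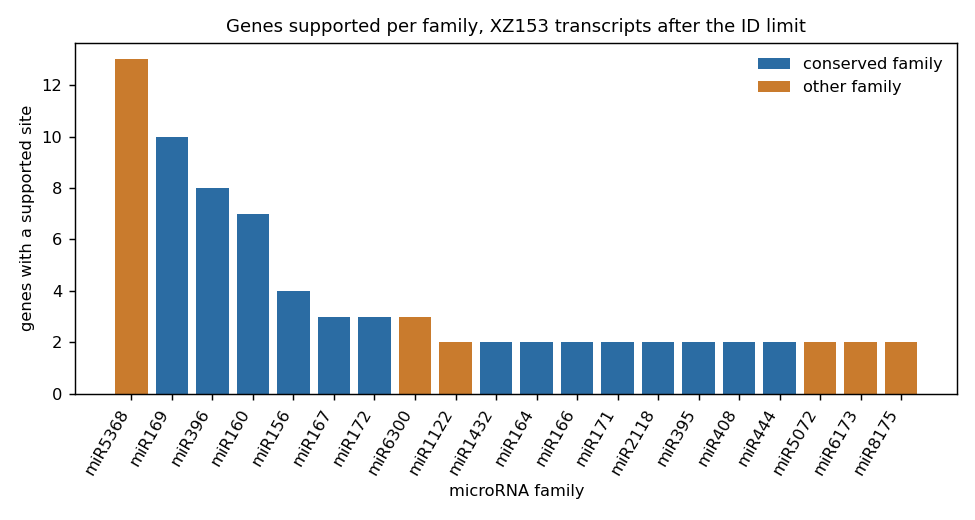
Number of genes with a supported site for each microRNA family with at least 2 such genes; blue bars are conserved families and orange bars other families. The bars run from 13 genes for miR5368 to 2 genes.

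Auxin signalling families had 11 supported pairs among 387 listed, or 2.84% (1.43 to 5.03), against the 0.615% of all pairs. The miR160 family, known for cutting auxin response factor messages, supplied 7 of them, and all 7 had a category 0 record. Its lowest p-value, 7.58e-05, is the lowest in the list and was reached on HORVU2Hr1G125740 at position 779 of isoform 1 and on HORVU7Hr1G101270 at position 1364 of isoform 5. HORVU6Hr1G026750 carried a perfectly paired site, with an Allen score of 0 and a p-value of 0.000152. That score was under a variant of cme-miR160a, not under the small RNA printed above. HORVU6Hr1G058890 had a p-value of 0.000227, and the neighbouring IDs HORVU2Hr1G089670 and HORVU2Hr1G089660 had 0.00174 and 0.00182. The printed sites of these 6 genes share the stretch around the cut. HORVU2Hr1G074210 was unlike them, with an Allen score of 16 and a p-value of 0.0129.

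The other auxin families had 4 supported genes in all, none with an Allen score of at most 2.5. The miR393 family, known for auxin receptor messages, had 1 supported gene, HORVU2Hr1G070800, at neighbouring positions. Its lowest p-value, 0.00163, was at position 2486 of isoform 1, in category 2 with an Allen score of 5. At position 2485 the same isoform was category 0 with a score of 4 and a p-value of 0.00868. Its best-paired record, at position 2490 of isoform 3, had a score of 3, category 2 and a p-value of 0.00244. The miR167 family, also known for auxin response factors, had 3 supported genes. On HORVU7Hr1G106280 its site at position 3609 of isoform 1 had an Allen score of 4.5 and a p-value of 0.00106. On HORVU4Hr1G085960 a 3p name of the family had a score of 6.5 and a p-value of 0.000834, and on HORVU6Hr1G094560 the score was 16 and the p-value 0.0133. The miR390 family, which starts small RNA production on a noncoding transcript that in turn limits auxin response factors, had no supported site among 40 genes, and its lowest p-value was 0.0861.

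Families known for transcription factor targets held 34 supported pairs among 3756 listed, or 0.905% (0.628 to 1.26), against the 0.615% of all pairs. These pairs belonged to 9 of the 10 families listed. The miR396 family, known for growth-regulating factors, had 8 genes, 7 of them with an Allen score of at most 3 at the best record. HORVU2Hr1G094470 and HORVU2Hr1G101770 were category 0 with a p-value of 7.58e-05, at position 500 of isoform 3 and position 758 of isoform 3. HORVU2Hr1G094460, next to the first of these by ID, had 0.000152, HORVU6Hr1G081210 had 0.000227 and HORVU4Hr1G010080 had 0.000303. Under a variant of the printed osa-miR396e-5p, HORVU7Hr1G008680 had a perfectly paired site in category 1 at position 1167 of isoform 3, with a p-value of 0.00136. At this cut 3 of the 9 isoforms were category 0. HORVU7Hr1G008680 was also the 1 gene supported for a second family, miR1122, at another position. HORVU4Hr1G003440 had a p-value of 0.00499 and a score of 2. The eighth gene, HORVU2Hr1G091220, was listed under a 3p name with a score of 11.5, outside the range of the other genes, and a p-value of 0.0211.

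The miR169 family, known for NF-YA subunits of a CCAAT-binding factor, had 10 supported genes that fell into unlike groups. Genes with a site in category 0 under mature names other than 3p numbered 4. These were HORVU5Hr1G007890 with a p-value of 0.000455, HORVU6Hr1G081080 with 0.00053, HORVU4Hr1G075830 with 0.00167 and HORVU4Hr1G005670 with 0.00257, at Allen scores of 2.5, 2, 5 and 3, and the 3 best paired are printed above. The other 6 genes had scores from 5 to 10.5 and p-values from 0.00406 to 0.0496, under hairpin-arm or 3p names. Of these, HORVU7Hr1G029860 and HORVU7Hr1G026840 were category 0 too. HORVU5Hr1G038920, HORVU6Hr1G001690, HORVU2Hr1G094390 and HORVU6Hr1G072370 were category 2.

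The miR172 family, known for AP2-like factors, had 3 supported genes. HORVU7Hr1G116220 had a p-value of 0.000227 on isoform 16 with an MFE ratio of 0.981, HORVU2Hr1G113880 had 0.00416 and HORVU7Hr1G050530 had 0.0188. The miR156 family, known for SPL factors, had 4, and 3 of them had an Allen score of at most 3 and lay in category 0. These were HORVU5Hr1G076380 with a p-value of 0.00167, HORVU6Hr1G019700 with 0.00431 and HORVU2Hr1G048280 with 0.00559, while HORVU7Hr1G089850 was category 1 with a score of 5.5 and a p-value of 0.00767. The miR171 family, known for GRAS-domain factors, had the same 21 letters as its site on both genes. HORVU6Hr1G063650 had a p-value of 7.58e-05 and HORVU7Hr1G001300 had 0.000152, both in category 0 with an MFE ratio of 1.

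The miR164 family, known for NAC factors, had 2 supported genes, both in category 1. HORVU5Hr1G011650 had a p-value of 0.000679 with a score of 1, and HORVU5Hr1G041400 had 0.00913 with a score of 3. For miR166, known for class III HD-ZIP factors, HORVU5Hr1G010650 had a site with a score of 1 in category 2 and a p-value of 0.000814. HORVU4Hr1G079950 was listed under a 5p name with a score of 9 and a p-value of 0.0278. The miR444 family, known for MADS-box factors in grasses, had HORVU7Hr1G011830 and HORVU3Hr1G095300 at p-values of 0.0161 and 0.0289, and miR319, known for TCP factors, had HORVU4Hr1G053530 at 0.0457 with a score of 7.5 under a hairpin-arm name. The lowest miR159 p-value among its 99 genes was 0.0666, in category 4, so this family, known for GAMYB-like factors, had no supported site.

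Families tied to nutrients and metals had 6 supported pairs among 1018 listed, or 0.589% (0.217 to 1.28), close to the 0.615% of all pairs. Only 1 of them was well paired. The miR395 family, known for sulfate assimilation and transport, had a site on HORVU5Hr1G094300 at position 118 of isoform 5 with an Allen score of 1.5, category 0 and a p-value of 0.000985. Its other gene, HORVU4Hr1G040660, was listed under a 5p name at 0.0336. The copper-linked families miR408 and miR397 had HORVU7Hr1G055410, HORVU3Hr1G010800 and HORVU7Hr1G098580 at p-values of 0.0193, 0.0264 and 0.0213, in categories 2, 1 and 1. The miR827 gene HORVU3Hr1G013030 had a score of 13 and a p-value of 0.0235. Nothing was supported for miR398, miR399 and miR528, whose lowest p-values were 0.226, 0.167 and 0.166.

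The remaining conserved families gave little. The small RNA pathway families miR162 and miR168, known for messages of Dicer-like and Argonaute proteins, had 0 supported of 72 pairs, which allows a share of up to 4.17% by the same rule (exact upper limit 4.99%). Their lowest p-values were 0.122 and 0.59. The families grouped as other had 4 supported pairs among 693, or 0.577% (0.157 to 1.47). Over all pairs of the list the share was 0.615%, which lies within the limits of both groups. The best of the 4 pairs was the miR1432 site on HORVU5Hr1G111520 at position 460, in category 0 with a p-value of 7.58e-05 and a score of 2. The second miR1432 gene, HORVU5Hr1G021230, had 0.0491 with a score of 7. The miR2118 family, known in grasses for noncoding precursors of phased small RNAs, had HORVU6Hr1G005360 at 0.0168 and HORVU4Hr1G061740 at 0.0295 with scores of 9 and 7.5. The lowest p-values of miR394 and miR482 were 0.129 and 0.173, and miR403, miR529, miR535 and miR2275 were not listed.

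Good pairing was often met without support, even in the conserved families. Of their 66 well-paired pairs, 43, or 65.2%, were not supported, whereas over all pairs of the XZ153 list only 0.615% were supported. Of these 43, 35 were in category 4, or 81.4%, beside 73.5% of all records after the ID limit. Under mature names 14 of the well-paired pairs were not supported, 13 of them in category 4, and 11 had a p-value of at most 0.05. They include the miR172 site on HORVU5Hr1G112440, with a score of 1, an MFE ratio of 1 and a p-value of 0.00858, and the miR408 site on HORVU5Hr1G070040, with a score of 1 and the same p-value. The miR319 sites on HORVU5Hr1G103400 and HORVU2Hr1G060120 had a score of 1.5 and p-values of 0.0043 and 0.0213. The miR156 site on HORVU6Hr1G031450 was category 3 with a p-value of 0.000951. At 1 read, a guided cut and ordinary decay cannot be told apart.

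Outside the conserved list, 25 families had 43 supported pairs and PC names had 5. The miR5368 family led with 13 genes, all under hairpin-arm names and with best-record Allen scores of 4 to 16.5. Their p-values ran from 0.0101 for HORVU3Hr1G082110 to 0.0446 for HORVU4Hr1G074800. Category 0 was met at the best record of HORVU3Hr1G082110, HORVU5Hr1G087730, HORVU4Hr1G019520, HORVU2Hr1G091870, HORVU5Hr1G031130 and HORVU5Hr1G103680, category 1 on HORVU7Hr1G008070 and HORVU4Hr1G074800, and category 2 on HORVU6Hr1G076880, HORVU3Hr1G092860 and the 3 genes that follow. Its sites on HORVU7Hr1G081960, HORVU7Hr1G107880 and HORVU6Hr1G049560 were the same 23 letters at the same position, 130, so these 3 genes are not independent cases. The miR6300 family had 3 genes, HORVU4Hr1G080820, HORVU5Hr1G066530 and HORVU3Hr1G094820, with p-values of 0.0145 to 0.0394 in categories 2, 1 and 1. Among supported pairs outside the conserved list the lowest p-values were 0.000814 for miR6173 on HORVU2Hr1G121650, in category 2, and 0.00227 for miR7757 on HORVU3Hr1G105020, in category 0. The miR9863 family, known in barley for disease resistance receptor messages, had HORVU6Hr1G002550 in category 0 with a p-value of 0.00507 and an Allen score of 3.5, on 1 of the 5 isoforms listed at the cut.

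Well-paired sites with support numbered 6 outside the conserved list. Besides the miR6173 and miR7757 sites these were miR1862 on HORVU3Hr1G087940, with a score of 0.5 and a p-value of 0.00612, and miR1122 on HORVU2Hr1G055640, with a score of 0.5 and a p-value of 0.0068. The miR1439 site on HORVU2Hr1G044640 and the miR812 site on HORVU7Hr1G055340 were perfectly paired, at p-values of 0.0234 and 0.0392. All 6 were under hairpin-arm names. The miR812 target site shares a long run of letters with the miR1122 small RNA on HORVU2Hr1G055640, and the miR1862 small RNA shares a shorter run with it. The 6 sites may therefore not be independent cases. The 2 miR1122 sites share most of their letters, and the second, on HORVU7Hr1G008680, had a score of 3.5 and a p-value of 0.0232. The miR157 name, which by its sequence family is often counted with miR156, had HORVU7Hr1G042000 in category 0 at 0.0313 under a hairpin-arm name. The 5 PC names had 1 gene each, with scores from 3.5 to 7 and p-values from 0.0103 for HORVU4Hr1G017550 to 0.0197 for HORVU7Hr1G027490. All 20 category 0 pairs with the lowest p-values, up to 0.00167, belonged to conserved families, 9 of them, with a median Allen score of 2.

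Isoforms of a gene repeat a site, and their categories were not alike. A cut was taken as 1 where listed sites of a gene shared 14 bases. The 103 supported cuts were listed on 339 isoforms, of which 190 were supported, or 56.05% (50.6 to 61.4), 131 were category 0 and 126 were category 4. At least 1 isoform of each cut is supported by the choice of cuts, and over the cuts listed on 2 or more isoforms the count was 150 of 299. Of the 63 cuts listed on at least 2 isoforms, 10 were supported on all of them and 25 held both category 0 and category 4. Where neighbouring positions of an isoform were listed, the better category was counted. The labels do not say how reads were shared between isoforms, and isoforms are not independent measurements.

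Some cuts had the same category on every isoform. For miR160, all listed isoforms were category 0 on HORVU7Hr1G101270 and HORVU2Hr1G089660, with 7 each, and on HORVU2Hr1G089670, with 5. Its cut on HORVU6Hr1G058890 was less even, where 4 of 9 were category 0, 4 category 3 and 1 category 4. The miR169 cut on HORVU4Hr1G005670 was category 0 on 11 of 11 isoforms, the largest number supported for any pair, and the miR396 cut on HORVU4Hr1G010080 on 10 of 11. The miR172 cut on HORVU2Hr1G113880 was listed on 18 isoforms, 7 of them in category 0, 3 in category 1, 1 in category 2 and 7 in category 4. The p-value there ran from 0.00416 on isoform 15 to 0.279 on isoform 13. The miR156 cut on HORVU6Hr1G019700 was category 0 on 3 of 13 isoforms and category 4 on 10, and the miR396 cut on HORVU4Hr1G003440 on 1 of 9 and 8 of 9.

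**Figure D3:**
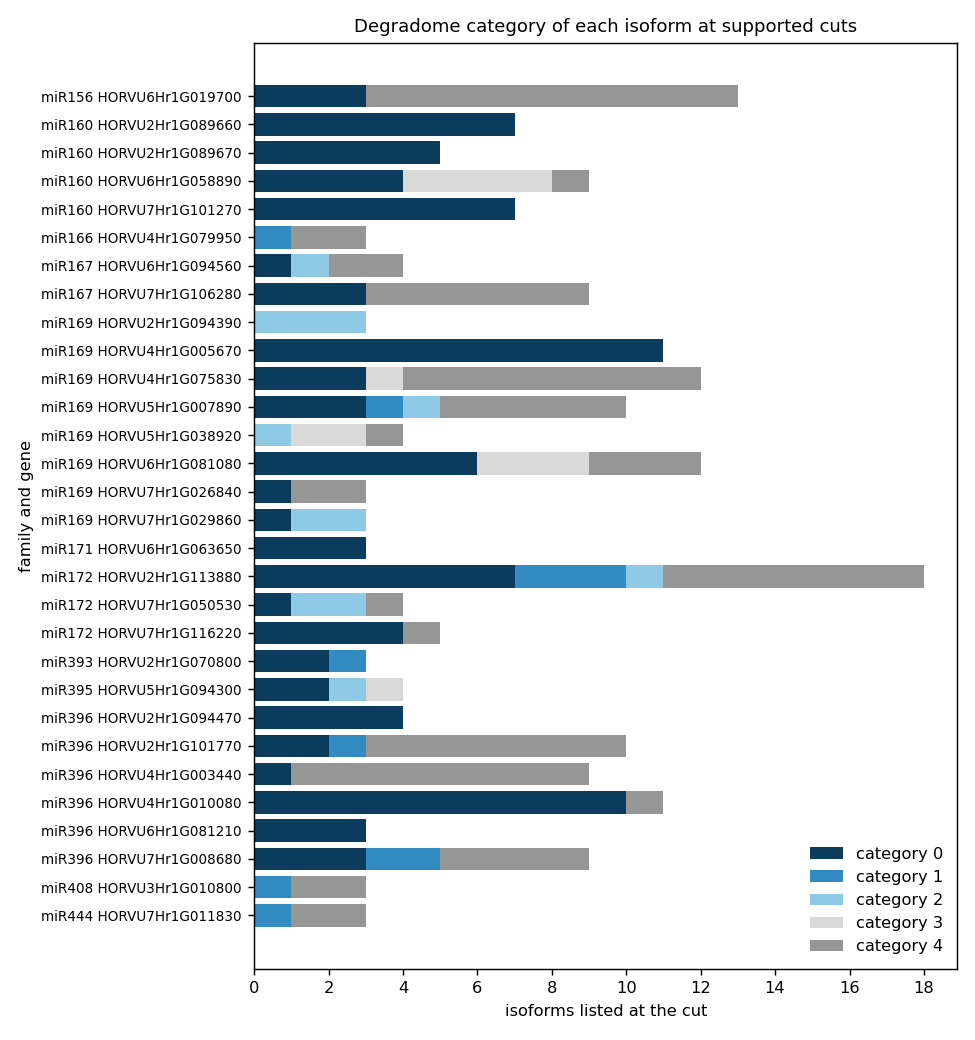
Number of isoforms in each degradome category for the 30 supported cuts of conserved families that were listed on at least 3 isoforms. Dark blue marks category 0 and dark grey category 4, and both occur on many of the same cuts, such as miR172 on HORVU2Hr1G113880 with 7 of each.

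Support on several isoforms came mostly from the conserved families. Of 24 pairs supported on 2 or more isoforms, 22 belonged to them, and of the 48 other pairs 2 did so, or 4.17% (0.509 to 14.3). Cuts listed on at least 2 isoforms numbered 25 of the 48 others and 38 of the 55 conserved, and isoforms listed at the cuts 102 and 237. The conserved cuts thus had more isoforms on which support could repeat, and isoforms of a gene are not independent. Mature names accounted for 47 of the 55 conserved pairs, or 85.5% (73.3 to 93.5), and for 9 of the 48 others, or 18.75% (8.95 to 32.6). Of all records after the ID limit, 25.4% were under mature names. The shares among all listed conserved and all listed other pairs are not given here, so the contrast may not be particular to supported pairs.

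Supported pairs were better paired than the list at large, which is partly built in because the deposited p-value ranks alignments by pairing. The median Allen score of the best record was 5 over the 103 supported pairs and 8.5 over all 17842 pairs, and the median MFE ratio was 0.811 against 0.682. Conserved supported pairs had a median score of 3 (quartiles 2 and 6.75) and a median ratio of 0.83, and the others a score of 6 (4 and 8.125) and a ratio of 0.785. The spread differed between families. The scores of the miR160 genes ran from 0 to 16, the miR396 genes from 0 to 11.5 and the miR172 genes from 3 to 4. Scores above 7 occurred in 13 of the 55 conserved pairs.

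**Figure D4:**
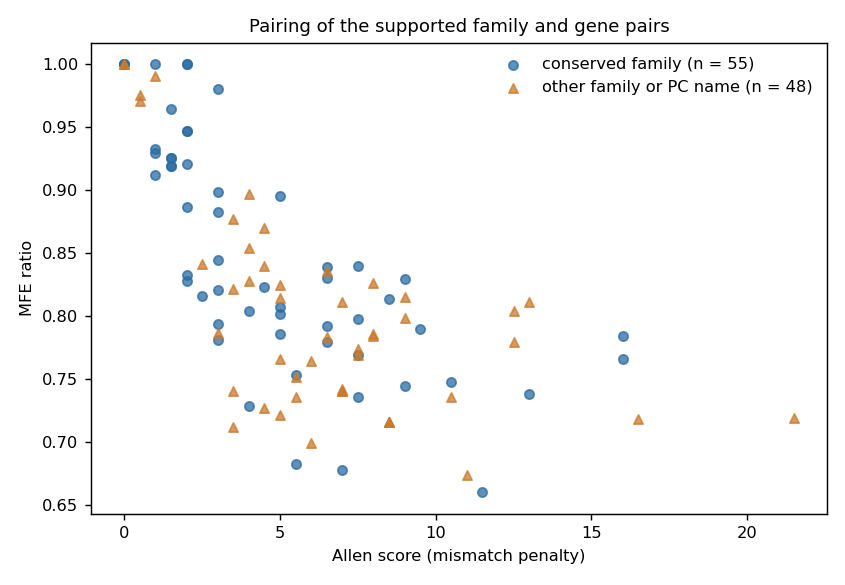
MFE ratio against Allen score for the best record of each supported pair; blue circles are the 55 conserved pairs and orange triangles the 48 others. Conserved pairs fill the upper left corner, with 21 at a score of at most 2.5 against 6 of the others.

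Pairing along the small RNA was described for the same records. As with the scores, higher pairing in supported pairs than in all pairs is partly built in by the p-value. Both bases at the cut, 10 and 11, were paired in 51 of the 55 conserved supported pairs, or 92.7% (82.4 to 98.0), in 43 of the 48 others and in 82.3% (81.8 to 82.9) of all pairs. The seed was paired throughout in 44 of 55, or 80.0% (67.0 to 89.6), in 27 of 48, or 56.25% (41.2 to 70.5), and in 42.8% (42.03 to 43.5) of all pairs. The first base of the small RNA, which plant Argonautes use for sorting, was U in 38 of 55 conserved pairs, or 69.1% (55.2 to 80.9), in 20 of 48 others, or 41.7% (27.6 to 56.8), and in 46.7% of all pairs.

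**Figure D5:**
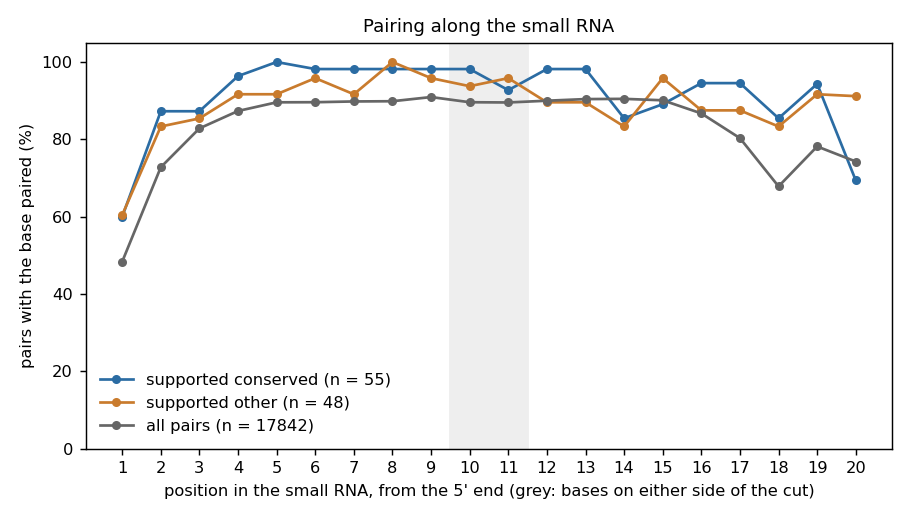
Percent of pairs whose small RNA base is paired, by position from the 5′ end, for supported conserved pairs, supported other pairs and all pairs; the grey band marks bases 10 and 11. At base 10 the values are 98.2%, 93.75% and 89.6%, and at base 1 they are 60.0%, 60.4% and 48.4%.

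Supported pairs lay on every chromosome prefix. They numbered 19 on the rest of HORVU2, 11 on HORVU3, 17 on HORVU4, 15 on HORVU5, 19 on HORVU6 and 22 on HORVU7. As a share of pairs listed, HORVU2 was highest at 0.779% (0.47 to 1.21) and HORVU3 lowest at 0.359% (0.179 to 0.641), with overlapping intervals. Category 0 was found for between 1.98% and 2.403% of pairs on each prefix. Of the conserved supported pairs, HORVU2 and HORVU7 had 12 each and HORVU3 had 3. The 7 miR160 genes lay on 3 prefixes and the 8 miR396 genes on 4.

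Before the ID limit the list had 8350 records. There 36 of 4770 pairs were supported, or 0.755% (0.529 to 1.04), and the interval overlaps the 0.471% to 0.7% after it. By records, 0.91% were supported before the limit. Category 0 was found for 2.1% of pairs and 1.4% of records (1.16 to 1.68) before it, and made up 1.51% of records (1.38 to 1.65) after it. The share of well-paired conserved pairs in category 0 before it was 4 of 21, or 19.05% (5.45 to 41.9). No difference was tested, since the split is one of ID order.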

How the data were processed

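Per the labels' protocols, the input was 20 µg of total RNA, and a 5′ adapter was ligated to purified messenger RNA. The cDNA went through 15 PCR cycles and single-end reads of 50 bp. The deposited XZ153 table is CleaveLand output, per the file headers and path column, and no source used here gives its version, aligner or genome build, so positions are counted along transcripts and no genome coordinates are given. Per the file headers, the deposited category and Allen score are scores, and the lowest MFE ratio deposited is 0.65. The deposited p-values were computed by the authors' run of CleaveLand, per the file headers. The table lists each transcript position under 1 small RNA name only. It also has 20 lines without a site, 18 of them below the first record of the range described, which were left out. None of the gene IDs matched the RefSeq table used here, so no gene is named.

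Records were merged to pairs of family and gene with pandas 2.3.3 in Python 3.11.15. Exact intervals came from SciPy 1.17.1 and figures from matplotlib 3.10.9. Counting was tested on simulated lists. The members, the lists of families and the support limits were chosen with earlier results of these data known, and the split by mature names and the conserved and other shares were added after seeing them. Sites named were, for each conserved family, the supported pair with the lowest p-value or else the lowest listed, the 20 lowest category 0 pairs, all supported genes of families with 3 or more, the 5 families with most genes listed and the 5 pairs supported on most isoforms. Other genes in the text were chosen after their values were seen.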

Additional observations from a re-analysis of the deposited data

How the results depend on the processing

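Under 36 alternatives, 18 values moved and 18 stayed within 1.5 times (counts) or within the 95% interval or quartiles (other values). The 103 supported pairs became 43 at a p-value limit of 0.01, 57 in category 0 alone, 56 under mature names, 49 at an Allen score of at most 4.5 and 197 as records. The 43 supported families became 20, 23, 24 and 28 under the first 4 of these. The 18 conserved families stayed between 12 and 16 under them, within 1.5 times. With Benjamini-Hochberg adjustment over the 40424 records of the list all 3 counts were 0. The category 0 share of well-paired pairs, 16.8%, was 7.4% at an Allen score of at most 4 and 32.3% with categories 0 to 2. In splits chosen after seeing the data, 31.8% for conserved families became 12.6% at a score of at most 4 and 55.6% under mature names, and for the others 6.93% became 0 under mature names, over 11 pairs. The median of 34 genes per family fell to 3 at a score of at most 4.5, because fewer records enter, and the cause of the other shifts was not tested. No paired analysis was possible because 1 library was used. Unknown depth and single reads in 73.5% of the records limit all of these values.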

Other observations

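Sites with an Allen score of 0 were listed for 39 pairs of 12 families. The MFE ratio was 0.699 for miR1439 on HORVU3Hr1G031360 and 1 for the others at their best record. At best, 25 of the 39 pairs were in category 4. The 7 in category 0 were 5 of the 11 conserved pairs and 2 sites of miR1439, on HORVU2Hr1G044640 and HORVU4Hr1G070610, with p-values of 0.0234 and 0.0679. The 4 miR2118 genes with such a site, HORVU2Hr1G039300, HORVU2Hr1G039320, HORVU5Hr1G015380 and HORVU5Hr1G076970, were all in category 4, at p-values from 0.0213 to 0.147, under 1 hairpin-arm name. Among families outside the conserved list, miR1439, miR1862, miR5049 and miR1122 had the most genes with a well-paired site, 21, 19, 17 and 12, of which 3, 1, 1 and 1 were in category 0.

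The names under 1 number were not alike. Of the 66 well-paired conserved pairs, 17 carried the hairpin-arm name gma-MIR169g-p3 or a variant of it, and miR169 had 2 category 0 genes among its 22 well-paired ones. Those 2, HORVU5Hr1G007890 and HORVU6Hr1G081080, were listed under mature names. Of the 103 supported cuts, 9 were listed for a second family at the same stretch on some isoform.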
